A study of Mus musculus with 13 samples.

Results

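Cytochrome P450 enzymes of families 1 to 4 are the haem-containing monooxygenases that carry out most oxidation of drugs, toxins, steroids and fatty acids in the liver. The genes were taken as the protein-coding symbols that begin with Cyp1, Cyp2, Cyp3 or Cyp4, have 1 subfamily letter and end in a number, with at least 10 counts summed over all libraries. Of 75 such symbols 62 met the minimum, out of 22048 genes in the count table, with 3 in family Cyp1, 39 in Cyp2, 7 in Cyp3 and 13 in Cyp4. Of the 13 left out, 8 had no count at all. The symbol rule leaves out genes with a letter after the number, such as Cyp4a12a and Cyp3a41a.

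The RNA sequencing covered whole mouse livers of 3 groups. The 6 control livers (replicates 1, 2 and 6 male, 3, 4 and 5 female) were not depleted of hepatic stellate cells (HSC), which store vitamin A and lie between hepatocytes and sinusoids. The 4 HSC-depleted livers (replicate 3 male, the others female) are labelled as depleted of those cells. The 3 hepatectomy livers (replicates 1 and 2 male, 3 female) were not depleted and were taken 72 h after partial hepatectomy, in which lobes are surgically removed and the rest regrows. The labels used here give neither strain, age nor means of depletion, and do not say whether the libraries of a group came from separate mice. If they did not, the p-values measure only the spread between these libraries.

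As background, families 1 to 3 mainly oxidise foreign compounds and steroids, and family 4 mainly hydroxylates fatty acids and eicosanoids. Transcription in hepatocytes is set by ligand-activated receptors (AHR for Cyp1, CAR for Cyp2b, PXR for Cyp3a, PPAR-alpha for Cyp4a), by hepatocyte factors such as HNF4A, and by Wnt signals that confine several genes to the pericentral zone around the central vein. In mice, the pattern of growth hormone secretion makes many members of Cyp2a, Cyp2b, Cyp2c, Cyp2d, Cyp3a and Cyp4a differ between the sexes.

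Upstream sequences are shown for Cyp2e1, the most abundant member, and for 6 members that lie close together or are near copies and differed in level, direction of change or sex. The sequences are the RefSeq windows of up to 250 bases before the RefSeq start, on build GRCm38.p6, 5′ to 3′ on the strand of the gene, cut at the first base that GENCODE M21 places in an exon. RefSeq windows matched 51 of the 62 members. Capitals in the first set mark GCGTG (core of the AHR response element), TATAAA (the core of the box bound by TBP), CAAAGTCCA (core of the HNF4A element) and GTTAAT (HNF1 half-site), each searched on both strands. Cyp1a1 and Cyp1a2 are neighbours on chromosome 9, and Cyp2c69 and Cyp2c70 lie in the Cyp2c cluster of chromosome 19.
Cyp1a1 (chr9:57697363-57697612, plus strand): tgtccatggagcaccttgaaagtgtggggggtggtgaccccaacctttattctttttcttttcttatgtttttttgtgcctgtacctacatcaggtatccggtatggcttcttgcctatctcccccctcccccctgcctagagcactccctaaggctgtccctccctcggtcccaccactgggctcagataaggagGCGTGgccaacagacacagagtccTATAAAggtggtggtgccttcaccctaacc
Cyp1a2 (chr9:57683704-57683905, minus strand): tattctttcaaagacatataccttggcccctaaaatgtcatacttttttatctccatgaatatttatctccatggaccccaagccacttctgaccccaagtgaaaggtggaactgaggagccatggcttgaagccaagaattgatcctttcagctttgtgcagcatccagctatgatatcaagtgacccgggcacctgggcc
Cyp2e1 (chr7:140763569-140763738, plus strand): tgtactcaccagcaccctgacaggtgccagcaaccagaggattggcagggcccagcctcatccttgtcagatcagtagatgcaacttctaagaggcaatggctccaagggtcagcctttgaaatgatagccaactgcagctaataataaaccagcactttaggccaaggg
Cyp2c69 (chr19:39886800-39887019, minus strand): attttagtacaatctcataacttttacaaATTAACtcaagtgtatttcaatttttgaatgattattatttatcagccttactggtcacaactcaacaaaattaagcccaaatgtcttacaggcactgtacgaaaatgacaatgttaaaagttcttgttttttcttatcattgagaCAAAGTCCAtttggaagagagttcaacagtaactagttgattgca
Cyp2c70 (chr19:40187334-40187536, minus strand): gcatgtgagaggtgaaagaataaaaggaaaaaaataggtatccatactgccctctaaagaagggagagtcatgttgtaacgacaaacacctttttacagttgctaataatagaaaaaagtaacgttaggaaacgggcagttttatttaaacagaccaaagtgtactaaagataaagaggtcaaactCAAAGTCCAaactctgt

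In these windows GCGTG was present before Cyp1a1 and not before Cyp1a2, and CAAAGTCCA was present before both Cyp2c69 and Cyp2c70. Within the full 250 bases, TATAAA began 29 bases before the RefSeq start of Cyp1a2 and of Cyp2c70 and 31 bases before that of Cyp2e1, in stretches that GENCODE places in exons and that are not printed. Over all 32851 RefSeq windows, 12.4% held TATAAA, 28.2% GCGTG, 6.43% GTTAAT, 7.02% the STAT5 letters TTCNNNGAA and 0.384% CAAAGTCCA. Over the 56 windows of members the shares were 39.3% for TATAAA, 16.1% for GCGTG, 14.3% for GTTAAT, 3.57% for TTCNNNGAA and, with 7 genes, 12.5% for CAAAGTCCA. The 7 members with CAAAGTCCA were Cyp2c40, Cyp2c67, Cyp2c68, Cyp2c69, Cyp2c70, Cyp3a11 and Cyp3a16. The letters are a description of the windows and no measure of binding.

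Cyp2b9 and Cyp2b13 are shown because their windows were 99.2% identical while their levels differed. Capitals mark the differing bases, T48C and C104T from Cyp2b9 to Cyp2b13, counted from 1 at the first base of the window.
Cyp2b9 (chr7:26173159-26173408, plus strand): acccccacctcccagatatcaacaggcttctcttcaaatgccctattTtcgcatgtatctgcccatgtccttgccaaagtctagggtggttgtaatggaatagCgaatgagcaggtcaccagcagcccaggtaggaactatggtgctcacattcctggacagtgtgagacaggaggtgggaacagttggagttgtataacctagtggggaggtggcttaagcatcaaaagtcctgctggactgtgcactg
Cyp2b13 (chr7:26061245-26061494, plus strand): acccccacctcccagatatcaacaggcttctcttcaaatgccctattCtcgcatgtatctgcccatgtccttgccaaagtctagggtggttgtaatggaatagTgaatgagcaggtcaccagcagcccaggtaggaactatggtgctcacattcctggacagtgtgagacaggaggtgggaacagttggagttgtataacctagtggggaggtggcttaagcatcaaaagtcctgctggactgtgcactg

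The near-identity of such copies also bears on the counts. Of the 62 members, 22 shared over 10% of the 75-base stretches of their transcripts with another gene, and 16 shared none. The share was 54.8% for Cyp2c40, 43.2% for Cyp2c69, 36% for Cyp2c67, 30.4% for Cyp4a32, 28.5% for Cyp2c68, 23.5% for Cyp2a5 and 22.1% for Cyp2a4. Values of these members are uncertain, since the sources used here do not give how reads that match several genes were counted.

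The libraries held 35360991 to 51008737 counts, so that 3 counts amounted to 0.0524 to 0.09 CPM, the counts of a gene relative to the scaled library total. All 14 stellate cell markers were lower in depleted livers, with a summed level of 315 to 824 CPM in controls, 15.5 to 19.1 CPM in depleted replicates 1, 2 and 3, 76.0 CPM in depleted replicate 4 and 348 to 653 CPM after hepatectomy. Summed hepatocyte markers overlapped between the groups, at 70460 to 141000 CPM in controls, 71620 to 168900 CPM in depleted and 129800 to 183200 CPM in hepatectomy livers. Monocyte and neutrophil markers summed to 16.03 to 121 CPM in controls, 497 to 857 CPM in depleted livers and 56.6 to 198 CPM after hepatectomy. In bulk liver, fewer cells of a type and less RNA per cell cannot be told apart. Depleted replicate 4 stood apart within its group, and fold changes without it are given where they moved by over 1.5 times. Control replicate 6 and hepatectomy replicate 2, both male, were low in Kupffer markers (55.1 and 59.85 CPM, against 325.6 to 482.7 in the other controls and 250.3 and 691.2 in the other hepatectomy livers). They were also low in endothelial markers (89.22 and 87.89 CPM, against 292.2 to 425.7 and 224.7 and 280.8). Without control replicate 6, 30 members were called in depleted livers, the same number as with it. The share of all genes called was 32.9% without it and 33.9% with it.

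Levels of different genes are compared as TPM, which divides by gene length and by the library's sum, computed here from the counts and the gene lengths of the table. Summed over the 62 members, the level was 33910 ± 1601 TPM (SD, n = 6) in control, 16170 ± 1010 TPM (SD, n = 4) in depleted and 19400 ± 5730 TPM (SD, n = 3) in hepatectomy livers. The lowest control library held 31810 TPM. Every depleted library (15320, 16050, 15680 and 17610 TPM for replicates 1 to 4) and every hepatectomy library (13610, 19530 and 25070 TPM) was below it. No depleted library lay near the control range, and hepatectomy replicate 1 lay below all depleted libraries.

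By family, the Cyp1 sum was 1174 ± 232 TPM (SD, n = 6) in controls, 166 ± 151 TPM (SD, n = 4) after depletion and 431 ± 214 TPM (SD, n = 3) after hepatectomy. For Cyp2 the sums were 28380 ± 943, 13310 ± 396 and 15610 ± 4837 TPM, with SD and n in the same order. The Cyp3 sums, 3038 ± 665, 1970 ± 554 and 2392 ± 156 TPM, and the Cyp4 sums, 1326 ± 710, 722 ± 331 and 973 ± 654 TPM, overlapped between groups. In Cyp1 and Cyp2 all controls thus lay above the other livers, while depleted and hepatectomy livers overlapped. The Cyp1 sum was almost wholly Cyp1a2 (means of 1172, 163.7 and 429.9 TPM in the same order), so it describes 1 gene.

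**Figure D1:**
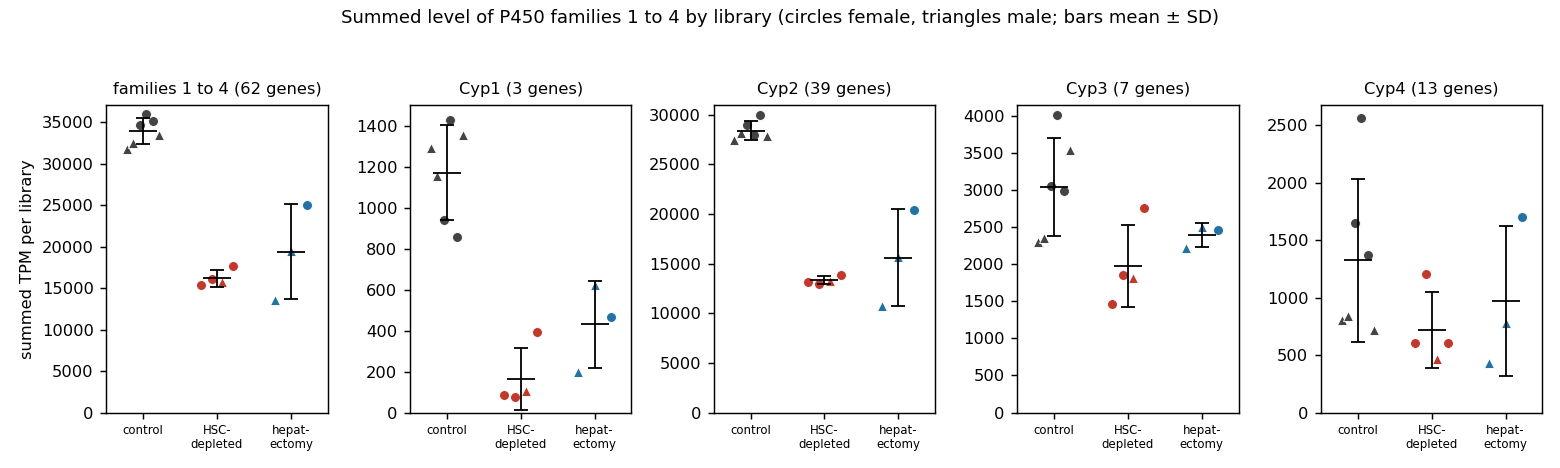
Summed TPM of families 1 to 4 and of each family in every library (y axis, from 0), by group (x axis); circles are female and triangles male livers, and bars are the mean and SD. The total and the Cyp1 and Cyp2 sums of depleted and hepatectomy livers lie below all 6 controls, while Cyp3 and Cyp4 overlap. The Cyp1 sum is almost wholly Cyp1a2.

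In control livers, 10 members made up 73.4% of the summed level. Cyp2e1, which oxidises ethanol and paracetamol, alone made up 34.5% to 44.8% of it in single libraries. It was followed in mean TPM by Cyp3a11 (1975), Cyp2c29 (1468), Cyp2d9 (1441), Cyp2d26 (1281), Cyp2f2 (1253), Cyp1a2 (1172), Cyp2a5 (967.9), Cyp2c50 (940.4) and Cyp2c70 (845.5). The SD of Cyp2d9 was 1492 TPM, so its place in this order is that of a gene with a wide range between livers. In depleted livers Cyp2e1 made up 7.96% to 12.4% of the summed level and ranked behind Cyp2c70, at 1604 ± 395 against 1992 ± 324 TPM (SD, n = 4), an order within those ranges. Without Cyp2e1 the members summed to 20380 ± 1950 TPM (SD, n = 6) in control, 14560 ± 842 TPM (SD, n = 4) in depleted and 11900 ± 2820 TPM (SD, n = 3) in hepatectomy livers. At the other end, Cyp2b23, Cyp2d34, Cyp2j8, Cyp2s1, Cyp3a57 and Cyp4f39 stayed under 1 TPM in every library.

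The comparison of depleted with control livers asks what the loss of HSC goes with in the liver. Of the members, 59 passed the filter on low counts, all but Cyp2b23, Cyp2d34 and Cyp2j8. In edgeR's quasi-likelihood test with group and sex, and an adjusted p under 0.05 over all genes as the threshold, 30 of 59 passed, 24 lower and 6 higher in depleted livers. Over all 13831 genes tested, 33.9% passed, 15% lower and 18.9% higher. The share of members that fell was thus 40.7% against a background of 15%, and the share that rose was 10.2% against 18.9%. The median log2 fold change was -0.61 over the tested members and -0.03 over all genes, and 19 of the falls were at least 2-fold. The share of all genes with falls of that size was not counted. Without depleted replicate 4, 33 members passed, 26 lower and 7 higher, against 35.1% of all genes. Without depleted replicate 3, the only depleted male, 23 passed, against 21.6% of all genes.

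**Figure D2:**
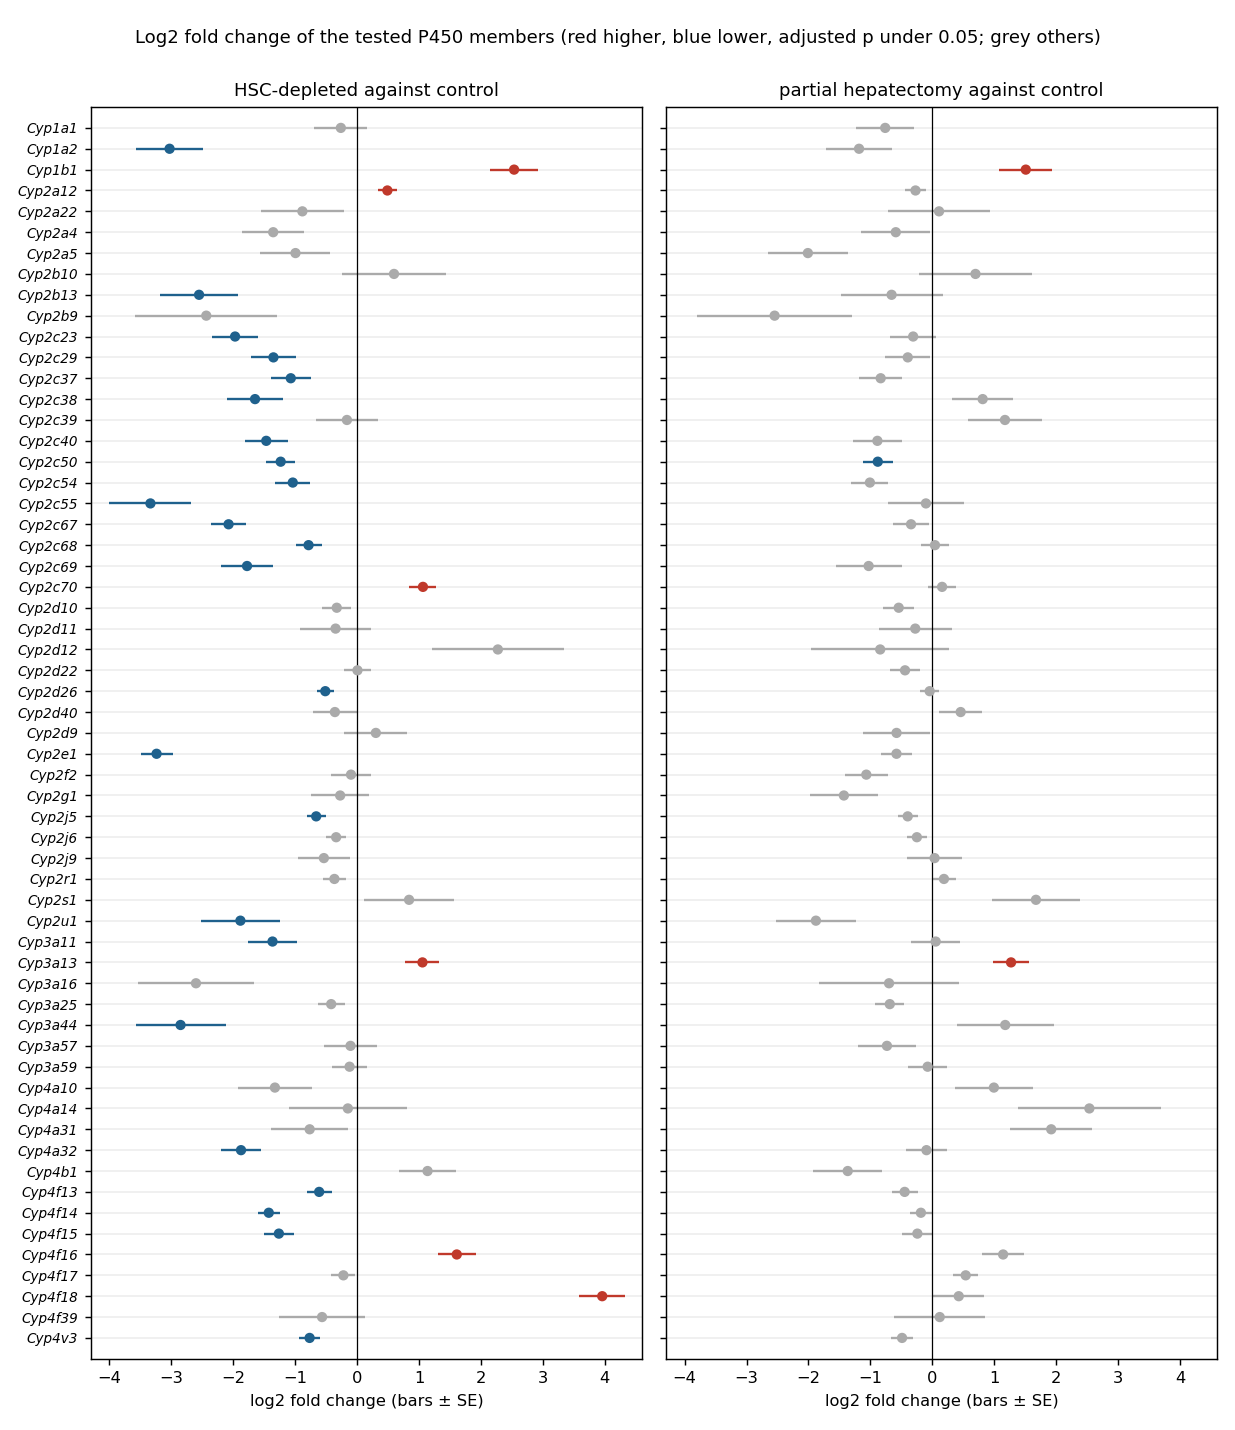
Log2 fold change of the 59 tested members (y axis, by symbol) with bars of ± 1 SE, for depleted (left) and hepatectomy livers (right) against control on the same x axis; blue and red points had an adjusted p under 0.05 in edgeR and were lower or higher, grey points did not. The left panel holds 24 blue and 6 red points and the right panel 1 blue and 2 red points.

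Of 8 members listed as pericentral, 7 fell and Cyp2a5 did not pass (log2 fold change -0.99, adjusted p = 0.199, edgeR). Cyp2e1 (chr7:140763739-140774987, ENSMUSG00000025479) had 9304, 10060 and 13210 CPM as the lowest, median and highest control value. Its depleted values were 831.3, 978.5, 1317 and 1340 CPM for replicates 1 to 4. All 4 lay far under the lowest control, without overlap. The fall was 9.42-fold (log2 -3.24 ± 0.26 SE, edgeR adjusted p = 4.65e-06).

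Cyp1a2 (chr9:57676937-57683703), which metabolises caffeine, had 650.4, 980.9 and 1311 CPM as lowest, median and highest control value. Depleted replicates 1 to 3 had 60.56, 57.48 and 73.51 CPM and replicate 4 had 277.6 CPM. The groups did not overlap, though replicate 4 stood well above the other depleted livers. The fall was 8.15-fold (log2 -3.03 ± 0.54 SE, edgeR adjusted p = 0.0011), and 14.4-fold without depleted replicate 4. Its neighbour Cyp1a1, the AHR-induced hydrocarbon hydroxylase with GCGTG in its printed window, was a low-level gene in all groups. Cyp1a1 had 0.674, 1.41 and 1.92 CPM as lowest, median and highest control value and 1.14, 1.75, 0.943 and 0.512 CPM in depleted livers (log2 -0.26 ± 0.43 SE, edgeR adjusted p = 0.677).

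Cyp3a11, the main mouse Cyp3a enzyme of drug metabolism, had 2846, 4063 and 6031 CPM as lowest, median and highest control value. In depleted replicates 1 to 3 it had 1024, 1307 and 1038 CPM, and in replicate 4 3849 CPM. Replicates 1 to 3 lay below all controls and replicate 4 lay within the control range. The fall was 2.58-fold (edgeR adjusted p = 0.017), and 3.89-fold without depleted replicate 4. The call was lost without depleted replicate 3 and in female livers alone (edgeR adjusted p = 0.149 in female livers). Cyp2c29, Cyp2c37, Cyp2c50 and Cyp2c54 fell between 2.05-fold and 2.55-fold. The calls of Cyp2c29, Cyp2c37 and Cyp2c54 were lost in female livers alone, those of Cyp2c37 and Cyp2c54 also without a sex term, and those of Cyp2c37 without control replicate 3 (edgeR adjusted p = 0.0585) and Cyp2c54 without depleted replicate 3 (edgeR adjusted p = 0.0792). The ranges of Cyp2c50 did not overlap, at 538.1, 749.3, 352.3 and 629.4 CPM in depleted livers against a lowest control of 984.4 CPM. For comparison outside the families, 12 of 14 other pericentral genes fell, among them the Wnt targets Axin2 (log2 -2.57) and Lgr5 (log2 -2.80) and the vitamin C synthesis gene Gulo (log2 -2.83), and no gene of that list rose.

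The periportal member Cyp2f2, known for activating naphthalene, showed no such difference. Its depleted values of 921.5, 1167, 944.6 and 746.1 CPM lay inside the control range of 433.3 to 1564 CPM (median 1122). The log2 fold change was -0.10 ± 0.32 SE (edgeR adjusted p = 0.846), and its sign changed with scaling to library size alone (log2 0.01) and in female livers (log2 0.37). Of 10 other periportal genes 2 rose and 3 fell.

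Of the Cyp2c subfamily, 13 tested genes on chromosome 19, 11 fell, Cyp2c70 rose and Cyp2c39 did not pass. The largest fall was that of Cyp2c55, which oxidises arachidonic acid to hydroxyeicosatetraenoic acids. It had 7.16, 10.2 and 15.6 CPM as lowest, median and highest control value. Depleted replicates 1 to 4 had 0.2999, 0.4928, 0.4716 and 2.918 CPM. Replicates 1 to 3 were nearly free of it and replicate 4 lay between them and the controls, with no overlap. The fall was 10.1-fold (log2 -3.33 ± 0.66 SE, edgeR adjusted p = 0.0021), and 24.6-fold without depleted replicate 4. Hepatectomy livers had 10.82, 15.02 and 5.686 CPM.

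Cyp2c23, an arachidonic acid epoxygenase, had a control range of 351.4 to 518.2 CPM (median 436.0). Its depleted values were 93.14, 89.80, 69.51 and 241.5 CPM, all lower, with replicate 4 highest (3.91-fold, edgeR adjusted p = 0.00148). Cyp2c67 had a control range of 150.9 to 394.0 CPM (median 189.1) and 38.49, 30.37, 55.25 and 69.23 CPM in depleted livers (4.21-fold lower, edgeR adjusted p = 0.000161). In both genes the groups did not overlap.

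Cyp2c70 is the enzyme that makes muricholic bile acids in mice. Its controls ran from 468.6 to 843.6 CPM with a median of 753.7. The depleted values were 1802, 1641, 1270 and 1328 CPM, all above the highest control. The rise was 2.09-fold (log2 1.06 ± 0.22 SE, edgeR adjusted p = 0.00232). Cyp2c69, with the same CAAAGTCCA letters in its window, fell 3.43-fold (edgeR adjusted p = 0.00668). The other rise in family Cyp2 was that of Cyp2a12, which hydroxylates secondary bile acids. It had 548.0, 741.6, 538.6 and 689.5 CPM in depleted livers against a highest control of 510.9 CPM and a median of 418.3 CPM (1.40-fold, edgeR adjusted p = 0.0258). That rise was not called in 6 of 19 alternatives, including female livers alone. Among P450 genes of families 5 and above, the bile acid synthesis genes Cyp7a1 (log2 -3.71, edgeR adjusted p = 0.000171) and Cyp27a1 (log2 -1.16, edgeR adjusted p = 0.00118) fell, and the retinoic acid hydroxylase Cyp26a1 rose (log2 2.94, edgeR adjusted p = 0.00648), out of 11 tested.

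Lipid and vitamin D enzymes of family Cyp2 lay outside these groups. Cyp2j5, an epoxygenase, had a control range of 536.2 to 848.0 CPM and 488.5, 468.7, 427.4 and 497.5 CPM in depleted livers (1.58-fold lower, edgeR adjusted p = 0.00459). Cyp2d26 fell 1.43-fold (edgeR adjusted p = 0.0129), with depleted values of 543.6 to 754.0 CPM under a lowest control of 784.2 CPM. Both calls were lost in female livers alone, and that of Cyp2d26 also without depleted replicate 3 (edgeR adjusted p = 0.053). Cyp2u1, a long-chain fatty acid hydroxylase, had 4.82, 15.3 and 106 CPM as lowest, median and highest control value and 2.34, 1.34, 3.30 and 4.68 CPM in depleted livers. Its fall passed (edgeR adjusted p = 0.0384) but was not called in 9 of 19 alternatives. Its log2 fold change of -1.88 was -1.22 without depleted replicate 3 and -2.52 without depleted replicate 4. Cyp2b10, the CAR-induced gene, ranged widely, from 1.5 to 51.3 CPM in controls and from 4.50 to 70.4 CPM in depleted livers, and did not pass (log2 0.60, and 1.23 without control replicate 2, edgeR adjusted p = 0.626 and 0.292). Cyp2r1, a vitamin D 25-hydroxylase, did not pass (log2 -0.37, edgeR adjusted p = 0.146), although its depleted values of 11.4 to 13.2 CPM lay under the lowest control of 14.8 CPM. Of all tested members, 15 had depleted values all below the controls and 5 all above. The same held for 11.9% and 16.5% of all genes tested.

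Beside Cyp3a11, the Cyp3a genes split. Cyp3a44, known as a female-specific gene, fell 7.20-fold in the fit with sex (edgeR adjusted p = 0.0095). In female livers it had 97.75, 102.7 and 11.54 CPM in controls and 12.9, 2.69 and 11.7 CPM after depletion, which overlap. The call was lost in female livers alone and without a sex term (largest edgeR adjusted p over the alternatives 0.409). Cyp3a13 rose. It had 105.7, 191.1 and 209.4 CPM as lowest, median and highest control value, and 408.8, 535.8 and 371.5 CPM in depleted replicates 1 to 3. Depleted replicate 4, at 171.6 CPM, lay within the control range. The rise was 2.08-fold (log2 1.05 ± 0.27 SE, edgeR adjusted p = 0.00976) and was not called in female livers alone (edgeR adjusted p = 0.134). The remaining Cyp3a members, Cyp3a16, Cyp3a25, Cyp3a57 and Cyp3a59, did not pass.

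**Figure D3:**
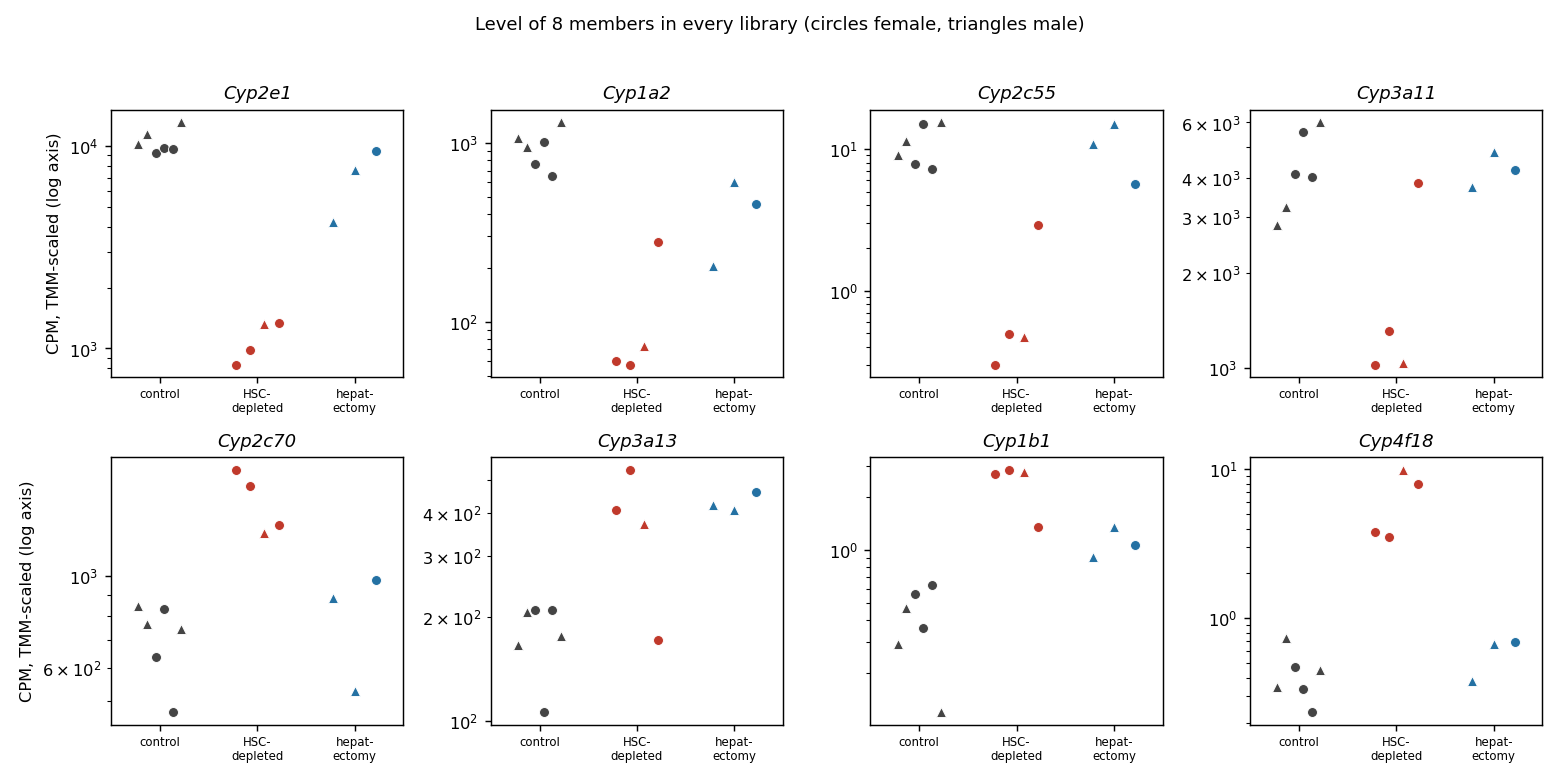
CPM of 8 members in every library (log y axis) by group (x axis); circles are female and triangles male livers. In the top row the depleted livers are low for Cyp2e1, Cyp1a2, Cyp2c55 and Cyp3a11, with depleted replicate 4 (the rightmost red point) nearest to the controls in Cyp1a2, Cyp2c55 and Cyp3a11; in the bottom row they are high for Cyp2c70, Cyp1b1 and Cyp4f18, and for Cyp3a13 in 3 of 4 livers.

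In family 4, whose members hydroxylate fatty acids, leukotrienes and other lipids, 5 of 13 fell (38.5%, against 15% of all genes) and 2 rose (15.4%, against 18.9%). Cyp4f14, which inactivates leukotriene B4, had a control range of 241.7 to 396.9 CPM and 118.1, 125.1, 93.11 and 143.2 CPM in depleted livers (2.69-fold lower, edgeR adjusted p = 8.11e-05). Cyp4f15 fell 2.4-fold, Cyp4f13 1.53-fold and Cyp4v3, a fatty acid omega-hydroxylase, 1.70-fold. The call of Cyp4f13 was lost in 6 of 19 alternatives, among them female livers alone, library size alone, the replicate block and without control replicate 1, depleted replicate 1 or depleted replicate 3. In each of these 4 Cyp4f and Cyp4v genes no depleted value reached the lowest control. Cyp4a32 fell 3.66-fold (edgeR adjusted p = 0.000854), with 3.90, 5.02, 7.25 and 5.81 CPM against a control range of 11.1 to 36.7 CPM. Cyp4a10, Cyp4a14 and Cyp4a31, PPAR-alpha targets with a wide range between livers, did not pass, although Cyp4a10 was called lower without depleted replicate 2 (edgeR adjusted p = 0.0383). Of 12 other PPAR-alpha target genes 8 fell, and Ppara itself fell (log2 -1.45, edgeR adjusted p = 0.0019).

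Cyp4f18, the leukotriene B4 omega-hydroxylase of neutrophils, had the largest fold change of all members in depleted against control livers when all libraries were fitted. Without depleted replicate 4 the change of Cyp2c55 was larger. Its level was 0.234, 0.399 and 0.741 CPM as lowest, median and highest control value. Depleted replicates 1 to 4 had 3.81, 3.54, 9.96 and 7.93 CPM, and hepatectomy livers 0.382, 0.674 and 0.698 CPM. Depleted livers were higher than all others. The rise was 15.5-fold (log2 3.96 ± 0.37 SE, edgeR adjusted p = 1.2e-05). Of 10 monocyte and neutrophil markers, all 9 tested were also higher in depleted livers, with sums of 595 and 497 CPM in replicates 1 and 2 and 857 and 791 CPM in replicates 3 and 4. The macrophage and monocyte gene Lyz2 made up the largest part of these sums, at 265.6, 246.1, 514.7 and 598.7 CPM. The neutrophil genes S100a8 (78.10, 58.98, 75.77 and 31.28 CPM), S100a9 (148.0, 111.1, 139.9 and 65.27 CPM) and Retnlg (36.50, 32.17, 37.55 and 8.84 CPM) were lowest in replicate 4, where Cyp4f18 was second highest. The list split in that replicate. Ly6g was also lowest there (95, 65, 96 and 51 counts in replicates 1 to 4). Mpo (9, 4, 26 and 96 counts) and Elane (15, 14, 27 and 45 counts) were highest there. After hepatectomy S100a8 and S100a9 also rose (22.8-fold and 22.7-fold), while Cyp4f18 did not pass. The part of these cells in the rise was not tested.

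Cyp4f16 rose 3.05-fold (edgeR adjusted p = 0.00161), from a control range of 0.840 to 4.45 CPM to 6.81, 6.88, 8.26 and 10.6 CPM. Cyp1b1, an AHR-regulated enzyme of oestrogen and retinol oxidation found largely outside hepatocytes, had 0.120, 0.415 and 0.632 CPM as lowest, median and highest control value. It had 2.72, 2.87, 2.78 and 1.36 CPM in depleted livers, with no overlap (5.79-fold, edgeR adjusted p = 0.000325). The lowest control value was that of replicate 6. Lymphocyte markers summed to 3.69 to 6.65 CPM in controls and to 40.2 to 89.0 CPM in depleted livers, and their part in these rises was not tested. Among 3 tested of 4 other AHR target genes, Nqo1, Tiparp and Ahrr rose, as did 18.9% of all genes. Of the other AHR-regulated members of Cyp1, Cyp1a2 fell and Cyp1a1 did not pass. The part of AHR was not tested.

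Depleted replicate 4 differed from the others of its group in P450 level and in markers together. It was the highest of 4 in 13 of the 24 members that fell, and it was the lowest of 4 in Cyp1b1 and Cyp3a13, 2 of the 6 that rose, and the highest in 1 of them, Cyp4f16. Its stellate (76.0 CPM) and Kupffer (1305 CPM) marker sums were the highest, and its hepatocyte (71620 CPM) and endothelial (230 CPM) sums the lowest, of the depleted livers. The hepatocyte list split. Relative to the scaled library total, Alb, which had the most counts, and Apob, Tat and Hnf4a were lowest in this liver. Asgr1 and Fgb were highest in it. The part of these cells in the P450 values was not tested.

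Genes of the enzymes that serve P450s were counted in the same comparison. Of 18 redox partners and haem enzymes, 7 fell and 4 rose in depleted livers, or 61.1% called against 33.9% of all genes. Por, the reductase that passes electrons to all microsomal P450s, did not pass (log2 0.19, edgeR adjusted p = 0.579). The alternative electron donor Cyb5a fell (log2 -0.98, edgeR adjusted p = 0.000486), as did the haem synthesis enzyme Alad (log2 -1.60, edgeR adjusted p = 0.000825). The haem-degrading Hmox1 rose (log2 1.88, edgeR adjusted p = 6.32e-05). Of 27 receptors and transcription factors of P450 genes, 6 fell and 2 rose, or 29.6%, a share near that of all genes. The falls included Cebpa (log2 -1.002), Foxa1 (log2 -1.12), Rxra (log2 -0.47) and the growth hormone receptor Ghr (log2 -1.34), and the rises were Cebpb (log2 1.31) and the AHR repressor Ahrr (log2 2.67). Hnf4a (log2 -0.10), the PXR gene Nr1i2 (log2 -0.02) and the CAR gene Nr1i3 (log2 -0.29) did not pass. Acute phase genes, which hepatocytes express in inflammation, rose in 9 of 10 cases after depletion and in 10 of 10 after hepatectomy.

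The comparison of hepatectomy with control livers places the same members in a regenerating liver that keeps its HSC. Of 59 members, 3 passed, Cyp1b1 and Cyp3a13 higher and Cyp2c50 lower, or 5.08% against 8.42% of all 13831 genes. Of all genes 6.06% were called higher and 2.36% lower. The median log2 fold change was -0.28 over the members and -0.02 over all genes, and 21 members (35.6%) had an unadjusted p under 0.05, against 24.3% of all genes. The CPM values after hepatectomy lay all below the controls in 1 member, Cyp1a2, and all above in Cyp1b1 and Cyp3a13, as against 6.25% and 7.41% of all genes. The count varied with the method, at 12 with DESeq2 (20.3% against 14% of all genes), 11 with scaling to library size alone (18.6% against 15.8%) and 5 with limma-voom (8.47% against 8.44%). It was 0 without hepatectomy replicate 2, 1 without hepatectomy replicate 1 or any one control other than replicate 4, 5 without hepatectomy replicate 3 and 8 without control replicate 4, while the share of all genes ran from 3.43% to 9.65%.

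Cyp3a13 had 423.1, 407.6 and 462.1 CPM after hepatectomy, all above the highest control of 209.4 CPM. The rise was 2.41-fold (log2 1.27 ± 0.29 SE, edgeR adjusted p = 0.0182), and the call was lost without hepatectomy replicate 2 or 3. Cyp1b1 had 0.911, 1.35 and 1.07 CPM, also above all controls (2.84-fold, edgeR adjusted p = 0.0488), and the call was lost in 15 of 17 alternatives. Cyp2c50 had 364.2, 536.3 and 1013 CPM, and replicate 3 lay inside the control range (1.84-fold lower, edgeR adjusted p = 0.0417). It was not called in 10 of 17 alternatives. These 3 members also passed in depleted livers with the same sign. Both comparisons use the same 6 controls, so the shared calls are not independent.

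Other members with wide differences did not pass. Cyp1a2 had 205.3, 602.9 and 455.6 CPM after hepatectomy, all under the lowest control of 650.4 CPM (log2 -1.18 ± 0.53 SE, edgeR adjusted p = 0.196). Cyp2e1 had 4234, 7604 and 9517 CPM, with replicate 3 inside the control range (log2 -0.58 ± 0.25 SE, edgeR adjusted p = 0.177), and passed only when that library was left out (log2 -0.98, edgeR adjusted p = 0.0446). Cyp2f2 had 460.6, 384.6 and 702.5 CPM (log2 -1.07, edgeR adjusted p = 0.0815) and Cyp2a5, the coumarin 7-hydroxylase, 33.30, 187.3 and 374.5 CPM (log2 -2.01, edgeR adjusted p = 0.0796). Both passed in DESeq2 and without control replicate 4, and Cyp2f2 also without hepatectomy replicate 3 (log2 -1.66, edgeR adjusted p = 0.0185). Replicate 1 was the lowest of the 3 hepatectomy livers in 34 of 59 members. No member was called in opposite directions in the 2 comparisons with control.

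Depleted and hepatectomy livers were then compared directly. Of 59 members 19 passed, 15 lower and 4 higher in depleted livers, or 32.2% against 23.4% of all genes (10.1% lower and 13.3% higher). With libraries of these 2 groups alone 11 passed (19% against 15.5% of all genes). Leaving out single libraries gave 10 to 20, while the share of all genes ran from 12.4% to 28%. The count of 10 was without depleted replicate 3 (16.9% against 12.4%). With library size alone 16 passed (27.1% against 26.8% of all genes), and without a sex term 15 (25.4% against 27.5%). In those 2 settings the share of members was near or under that of all genes. The largest called difference was that of Cyp3a44, 16.3-fold lower in depleted livers (edgeR adjusted p = 0.00672). It was 32.4-fold lower without hepatectomy replicate 3, the only female of its group. That value leans on few reads, with 51 and 17 counts in hepatectomy replicates 1 and 2 and 1 count in depleted replicate 3. Its call was lost without a sex term (edgeR adjusted p = 0.504). Cyp2e1 was 6.30-fold lower in depleted than in hepatectomy livers (edgeR adjusted p = 7.34e-05), Cyp2c55 9.39-fold lower (edgeR adjusted p = 0.00952, and 21.5-fold without depleted replicate 4) and Cyp4f18 11.6-fold higher (edgeR adjusted p = 0.000393). Cyp1a2 was 3.59-fold lower (edgeR adjusted p = 0.0378, lost in 7 of 15 alternatives), and 6.29-fold lower without depleted replicate 4. Cyp2c67 was 3.31-fold lower (edgeR adjusted p = 0.00237) and Cyp4f14 2.36-fold lower (edgeR adjusted p = 0.00117). Cyp2e1, Cyp2c67, Cyp4f14 and Cyp4f18 passed in all 15 alternatives run for this comparison.

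Of the 4 Cyp4a genes, Cyp4a10, Cyp4a31 and Cyp4a32 were lower in depleted than in hepatectomy livers, and Cyp4a14 did not pass. Cyp4a10 had 33.70, 225.4, 16.98 and 56.02 CPM in depleted livers and 22.96, 121.9 and 481.4 CPM in hepatectomy livers. The ranges overlap, and the highest value of each group is a female liver. Given sex, Cyp4a10 was 4.99-fold lower in depleted livers (edgeR adjusted p = 0.0348), Cyp4a31 6.42-fold lower (edgeR adjusted p = 0.0252) and Cyp4a32 3.43-fold lower (edgeR adjusted p = 0.00386). The call of Cyp4a10 was lost in 8 of 15 alternatives and that of Cyp4a31 in 4. Without hepatectomy replicate 2 both were lost (2.94-fold and 3.73-fold), and without hepatectomy replicate 3 that of Cyp4a32 (2.09-fold, edgeR adjusted p = 0.0644). Cyp4b1, which activates furans and other protoxins, had 29.73, 37.41, 35.51 and 12.65 CPM in depleted and 6.82, 1.63 and 5.96 CPM in hepatectomy livers. Its lowest values, 1.63 CPM in hepatectomy replicate 2 and 3.33 CPM in control replicate 6, were in the livers with few Kupffer and endothelial markers, whose part was not tested. It was 5.67-fold higher in depleted livers (edgeR adjusted p = 0.0124), a call lost without depleted replicate 3 (edgeR adjusted p = 0.0795). Neither comparison with control passed (log2 1.14, edgeR adjusted p = 0.0781, and log2 -1.37, edgeR adjusted p = 0.158), though the first did without depleted replicate 4 (edgeR adjusted p = 0.0325).

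Male and female control livers were compared next. In a fit of the 3 male against the 3 female controls, 14 of 59 members passed, 12 higher in females and 2 higher in males, against 0.738% of the 13005 genes tested (0.354% higher in females and 0.384% higher in males). The count was 7 without control replicate 3, 8 without control replicate 1, 5 or 6, and 12 without control replicate 2 or 4, while the share of all genes ran from 0.241% to 1.51%. DESeq2 called 22, or 37.3% against 3.42% of all genes. Cyp2a4, a steroid 15-alpha-hydroxylase, had 437.9, 255.5 and 411.2 CPM in female and 0.857, 1.46 and 1.11 CPM in male controls (321-fold, edgeR adjusted p = 2.13e-05). Cyp2c69 had 423.2, 761.9 and 307.3 CPM in females and 0.482, 1.01 and 0.390 CPM in males (779-fold, edgeR adjusted p = 0.000731). Cyp2c40 had 192.8, 258.2 and 165.0 CPM against 0.884, 2.64 and 1.29 CPM (127-fold, edgeR adjusted p = 0.000844). The sexes were far apart in each of the 3 genes.

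Cyp2b13 had 420.4, 91.02 and 476.2 CPM in female controls and 1, 2 and 0 counts in male controls 1, 2 and 6 (edgeR adjusted p = 0.00771). Cyp2b9, with its nearly identical window, had 881.9, 514.5 and 767.7 CPM in females and 0.0804, 12.8 and 0.210 CPM in males, and did not pass (edgeR adjusted p = 0.271). The female-higher set also held Cyp2a22, Cyp2c37, Cyp2c38, Cyp2c39, Cyp2c68, Cyp2g1, Cyp4a10 and Cyp4a14. The male-higher members were Cyp2d9, a testosterone 16-alpha-hydroxylase, and Cyp2d12, whose call was lost without any one of the 6 controls. Of the 14 calls by sex, 5 held in all 11 alternatives, those of Cyp2a4, Cyp2c39, Cyp2c40, Cyp2c69 and Cyp2d9. Cyp2d9 had 2189, 1512 and 2616 CPM in males and 44.01, 83.00 and 104.3 CPM in females (27.2-fold, edgeR adjusted p = 0.00148).

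**Figure D4:**
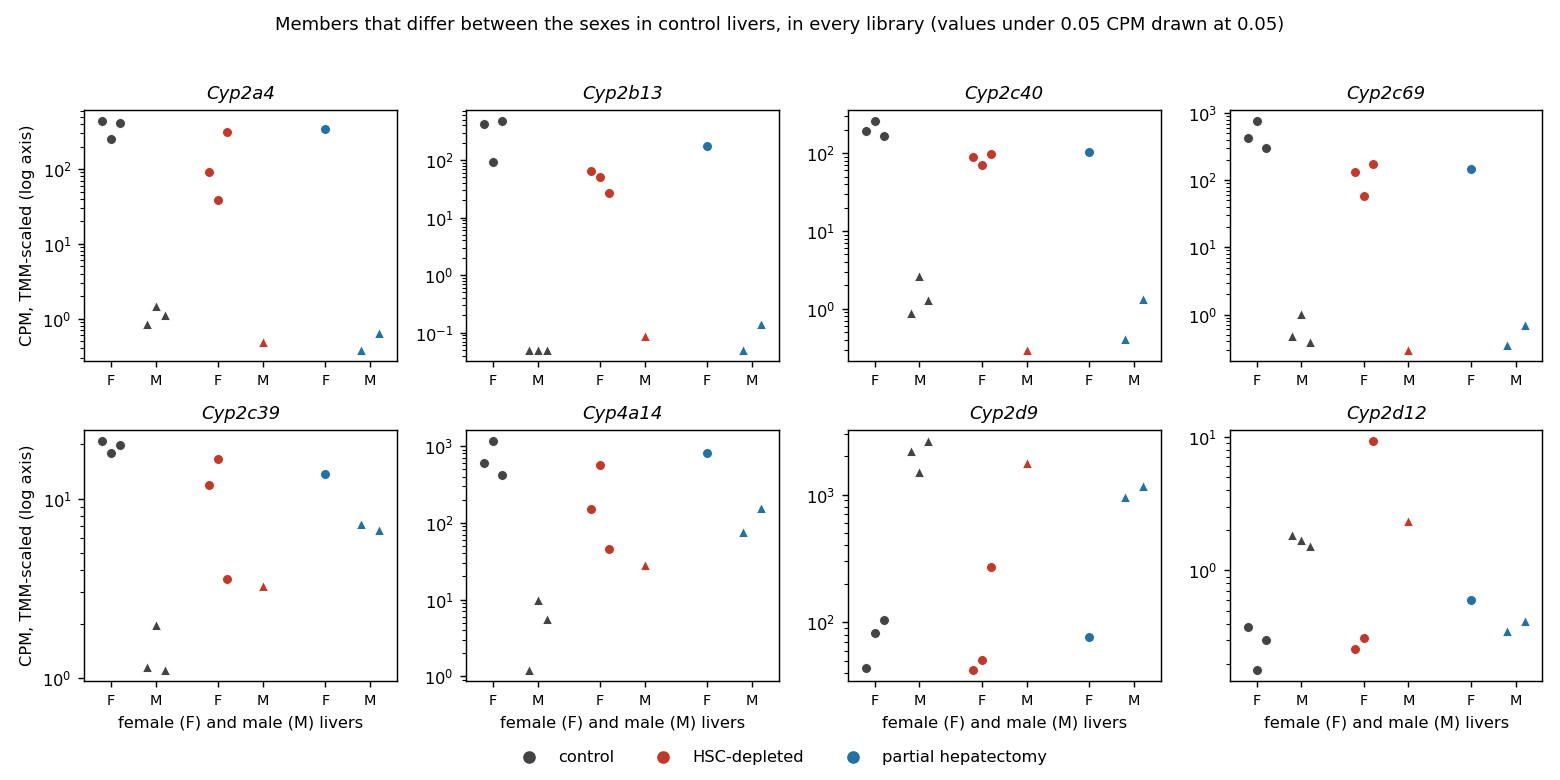
CPM (log y axis) of 8 members that differed between male and female controls, in every library, split by sex (F and M on the x axis) and group (colour); values under 0.05 CPM are drawn at 0.05. The depleted male is near the male controls in Cyp2a4, Cyp2b13, Cyp2c40, Cyp2c69 and Cyp2d9, and depleted females are above the male controls in the first 4 of these.

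Of these 14 sex-differing members, 6 fell in depleted livers (42.9%, against 15% of all genes) and none rose (18.9% of all genes did), namely Cyp2b13, Cyp2c37, Cyp2c38, Cyp2c40, Cyp2c68 and Cyp2c69. Of the other 45, 18 fell (40%) and 6 rose (13.3%), a share of falls near that of the sex-differing members. Cyp2a4 was called lower without depleted replicate 4 (log2 -2.17, edgeR adjusted p = 0.00313, against -1.35 with it) and without control replicate 4. In female livers, Cyp2c40 had 90.14, 70.92 and 97.68 CPM after depletion, under the lowest female control of 165.0 CPM. The male-typed Cyp2d9 had 42.31, 50.29 and 270.5 CPM in depleted females and 1760 CPM in the depleted male, inside the male control range of 1512 to 2616 CPM. Cyp4a14 had 28.57 CPM in the depleted male and 74.81 and 154.4 CPM in the hepatectomy males, against 1.21 to 9.79 CPM in male controls.

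Whether depletion differed between the sexes was tested as an interaction of sex and depletion, which rests on 1 depleted male. It was called for 0 of 59 members in edgeR, and for 0.0217% of all genes. At an unadjusted p under 0.05 there were 8 members (13.6%), against 3.47% of all genes. DESeq2 and limma-voom also called 0 members. Female livers alone, 3 depleted against 3 control, gave 20 of 57 tested members, 15 lower and 5 higher, or 35.1% against 20% of all genes, with 18 of them shared with the fit over all livers. Cyp2b9 was among these (log2 -1.47, edgeR adjusted p = 0.0194), with 324.3, 293.7 and 158.3 CPM in depleted females under the lowest female control of 514.5 CPM, and had not passed over all livers (log2 -2.43, edgeR adjusted p = 0.122), but passed there without control replicate 2 (log2 -1.29, edgeR adjusted p = 0.0126). Without a sex term 22 members passed, or 37.3% against 34.2% of all genes, and the falls of Cyp2b13, Cyp2c40 and Cyp2c69 among others were not called (edgeR adjusted p = 0.539, 0.812 and 0.656). Of the 30 calls after depletion, 14 held in all 19 alternatives run: Cyp1a2, Cyp2c23, Cyp2c50, Cyp2c55, Cyp2c67, Cyp2e1, Cyp4a32, Cyp4f14, Cyp4f15 and Cyp4v3 lower, and Cyp1b1, Cyp2c70, Cyp4f16 and Cyp4f18 higher.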

How the data were processed

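Whole-liver RNA was extracted with TRIzol and made into TruSeq stranded mRNA libraries, per the labels' protocols. The authors deposited 1 table of raw counts per gene with gene lengths. STAR 2.7.1a, SAMtools 1.15.1, featureCounts 1.6.4 and build mm10 are named in the submitters' processing notes. The strand setting and the treatment of multiply matching reads are not given in the sources used here. The members, gene lists and tests were chosen with earlier results of these data known. Named were the 10 members highest in control TPM, up to 10 largest falls and 6 largest rises called against control, members called by sex, the 5 largest differences called between depleted and hepatectomy livers, a list of 29 P450 genes of known role, and up to 4 genes per pathway list. A few other called or uncalled members and list genes were named after their values were seen.

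Counts were fitted in R 4.3.3 with edgeR 4.0.16 (filterByExpr, TMM scaling, quasi-likelihood test, Benjamini-Hochberg adjustment over all genes, threshold 0.05) with group and sex as terms over all 13 libraries. Males and females were compared within the controls alone. The biological coefficient of variation was 31.4% on 9 residual degrees of freedom. CPM are TMM-scaled, and TPM were computed from the deposited counts and lengths. Alternatives were RLE factors, library size alone, DESeq2 1.42.0, limma-voom (limma 3.58.1), no filter, a replicate block, no sex term, fewer groups, female livers and each library left out. No replicate pair agreed within sampling noise. Sequences came from RefSeq (GRCm38.p6). Of the gene identifiers, 21741 matched GENCODE M21.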

Additional observations from a re-analysis of the deposited data

Results flagged for a closer look

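In 102 groups of 4 or 6 libraries, made of the named members and the family sums, 8 held a library set apart from the rest of its group by Dixon's gap test at 95%, where chance marks about 1 in 20 groups. Of these, 6 were depleted replicate 4, of which Cyp1a2 and the Cyp1 sum are 1 observation, since Cyp1a2 made up 390.4 of the 391.7 TPM. It had 277.6 CPM of Cyp1a2 against 57.48 to 73.51 in the other depleted livers, 241.5 CPM of Cyp2c23 against 69.51 to 93.14, 2.918 CPM of Cyp2c55 against 0.2999 to 0.4928, and 3849 CPM of Cyp3a11 against 1024 to 1307. It had 1.359 CPM of Cyp1b1 against 2.721 to 2.867, and a summed Cyp1 level of 391.7 TPM against 77.19 to 106.8. The stellate markers of this liver summed to 76.0 CPM against 15.5 to 19.1 CPM in the other depleted livers, and their part in these values was not tested.

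Depleted replicate 3, the only male of its group, had 1760 CPM of Cyp2d9 against 42.31 to 270.5 in the females. Control replicate 4 had 46.03 CPM of Cyp4a31 against 2.002 to 9.468 in the other controls.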

How the results depend on the processing

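The count of members called in depleted against control livers stayed within 1.5 times in all 19 alternatives. It was 23 to 33 with single libraries left out, while the share of all genes ran from 21.6% to 35.1%. The median log2 fold change was -0.50 with library size alone, -0.71 without a sex term and -0.72 to -0.53 with single libraries left out. For hepatectomy against control the count was 11 with library size alone, 12 in DESeq2, 5 in limma-voom and 0 to 8 with single libraries left out, and the median was -0.49 with library size alone and -0.42 to -0.19 with libraries left out. For depleted against hepatectomy livers the count was 11 with these groups alone (19% against 15.5% of all genes). It was 10 to 20 with libraries left out, while the share of all genes ran from 12.4% to 28%. It was 16 with library size alone (27.1% against 26.8%) and 15 without a sex term (25.4% against 27.5%). The median was -0.15 with library size alone, -0.21 without a sex term and -0.58 to -0.15 with libraries left out. For male against female controls the count was 22 in DESeq2 and 7 to 12 with libraries left out, and the median was -0.023 to 0.094. Library size alone moved the median of all genes to -0.24 after hepatectomy and to 0.27 between depleted and hepatectomy livers. The cause was not tested.

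Signs were followed for the named members in selected comparisons only, and changed for 5 that had not passed. Cyp2f2 after depletion was 0.01 with library size alone, 0.053 with 2 groups, 0.37 in female livers, and -0.345 to 0.046 with single libraries left out (0.046 without depleted replicate 3). Cyp2d9 after depletion was -1.04 without a sex term, and -0.57 (without depleted replicate 4) to 0.552 with single libraries left out. After hepatectomy, Cyp3a11 was -0.15 with library size alone, -0.011 without a sex term, -0.04 without control replicate 1 and -0.11 without hepatectomy replicate 2. Cyp4a14 was -0.085 without a sex term. Cyp2c55 was 0.00, 0.06 and 0.31 without control replicate 4, control replicate 6 and hepatectomy replicate 3.

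Replicate numbers were not taken as pairs in the main fit. Correlations of same-numbered libraries ran from -0.098 to 0.416 between control and depleted livers (mean 0.116, against -0.018 for other numbers). They ran from -0.191 to 0.084 between control and hepatectomy livers (mean -0.052, against 0.012). Between depleted and hepatectomy livers they ran from 0.041 to 0.272 (mean 0.158, against -0.052). With the replicate block, 30 members were called after depletion (28 shared), or 50.8% against 28.1% of all genes. After hepatectomy 2 were called (3.39% against 4.57%), and 20 between depleted and hepatectomy livers (33.9% against 22.9%). The interaction count was 0 (0.0362% of all genes), and Cyp2c55 after hepatectomy was 0.27.

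Depth limits Cyp2b13, which had 0 to 5 counts in each male liver, and Cyp1b1, which had 4 counts in control replicate 6. It also limits Cyp3a44, which had 1 count in depleted replicate 3. The 1 depleted male limits what can be said by sex.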
